A study of Drosophila melanogaster with 12 samples.

Results

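Juvenile hormone is an insect hormone made in the corpora allata, glands in the head, and in adult flies it is known for promoting yolk uptake by the developing egg. Epoxide hydrolases open the epoxide ring of the hormone and so take part in its breakdown. In responding cells the hormone binds receptors of the bHLH-PAS family of transcription factors, which switch on target genes. The 6 genes described here were chosen by name for these roles, with earlier results of these data in view, from 15446 genes in the count table. They are the juvenile hormone epoxide hydrolases Jheh1, Jheh2 and Jheh3, the receptors Met (Methoprene-tolerant) and gce (germ cell-expressed), and Kr-h1 (Krüppel homolog 1), a zinc finger transcription factor that is a direct target of the receptors. No threshold on a measured value enters the choice, and the values that prompted it are not recorded, so the counts of called genes below describe these 6 genes and nothing is read from them about the pathway. All 6 passed the filter on low counts that left 8638 genes to be tested.

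The data are RNA-seq of Drosophila melanogaster ovaries, 12 libraries in 6 groups of 2. The study compared ovaries with and without nxf2, a gene of the nuclear RNA export factor family that acts in piRNA-guided silencing of transposons. Ovaries came from 2 stocks labelled wild type, attp2 and W1118, from flies with a germline-specific nxf2 knockdown, and from nxf2 -/- flies made by CRISPR. The other 2 groups, called here the FL10B heterozygote and the FL10B mutant, are nxf2 +/- and nxf2 -/- and both carry panx FL10B, named as tethered. No source used here gives the meaning of FL10B. All flies were kept at 25 °C and fed yeast, and their age is given as 3 to 5 without a unit. Somatic cells of the ovary are outside the target of the knockdown, and the CRISPR allele is present in every cell. The knockdown was compared with attp2 and the mutant with W1118, pairings read from the names alone, and the FL10B mutant was compared with the FL10B heterozygote. Nothing says that the 2 libraries of a group came from separate flies, so p-values measure the spread between these libraries, which may be technical.

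Library totals were 3811630 to 11260925 counts, which puts 3 counts at 0.275 to 0.772 CPM, the count scaled to library size. The nxf2 counts themselves fell in the knockdown, with a fitted log2 fold change of -1.23 (SE 0.15, adjusted p = 0.000158), and in the mutant, with -1.12 (SE 0.14, adjusted p = 0.000152). With Panx FL10B the nxf2 level was 30.2 CPM in the mutant and 35.2 CPM in the heterozygote, which did not pass the test (adjusted p = 0.334). Counts over the whole gene do not show which bases the CRISPR alleles change. Germline markers summed to 2891 to 4013 CPM and follicle cell markers to 326.9 to 578.8 CPM, and none of these markers was at 0 in any group. jhamt, which encodes the methyltransferase of juvenile hormone synthesis and marks the corpora allata, had no count in attp2, W1118 and both Panx FL10B groups and reached at most 0.447 CPM elsewhere. The chi-square between replicates over its degrees of freedom was highest in attp2, at 35.7, and lowest in W1118, at 1.59. This measure grows with depth. The attp2 libraries were the deepest and the shallowest was of W1118, so it does not rank the likeness of replicates alone.

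Jheh3 was higher in every knockdown and mutant library than in every library of the wild-type stocks and the FL10B heterozygote and was called higher in all 3 nxf2 comparisons. In these comparisons 15.7% (knockdown), 26.8% (mutant) and 19.5% (with Panx FL10B) of all tested genes were called in either direction, and none of the other 5 genes was called in the same direction in all 3. Jheh3 encodes a hydrolase of juvenile hormone. Its level was 29.96 and 22.9 CPM in attp2, against 56.7 and 58.6 CPM in the knockdown. It was 30.9 and 31.4 CPM in W1118, against 79.9 and 85.8 CPM in the mutant. It was 37.1 and 41.2 CPM in the FL10B heterozygote and 104.0 and 105.0 CPM in the FL10B mutant. The knockdown and both mutant groups did not overlap their controls. With 2 libraries against 2, a share of 0.333 of all orderings keeps the groups apart. The shares of all tested genes kept apart, or called the same way in all 3 comparisons, were not counted. No neighbouring groups of Jheh3 overlapped in the order of means. That order was the FL10B mutant (104.5 CPM), the mutant (82.9), the knockdown (57.7), the FL10B heterozygote (39.2), W1118 (31.1) and attp2 (26.4). The highest group mean was 3.95 times the lowest.

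Jheh3 rose 2.18-fold in the knockdown, with a fitted log2 fold change of 1.13 (SE 0.13, adjusted p = 9.4e-05). It rose 2.66-fold in the mutant, with 1.41 (SE 0.13, adjusted p = 1.22e-05). The FL10B mutant was 2.66-fold above the FL10B heterozygote, with 1.41 (SE 0.13, adjusted p = 4.62e-06). Of all tested genes, 5.78%, 7.30% and 6.46% had a larger absolute log2 fold change in these comparisons. The knockdown effect minus the mutant effect on Jheh3 was -0.28 (SE 0.18, adjusted p = 0.264), and the effect with Panx FL10B minus that without it was 0.00 (SE 0.19, adjusted p = 1.00). These values do not show that the effects are equal. Between the wild-type stocks and between the FL10B heterozygote and W1118, Jheh3 did not pass the test, with log2 fold changes of 0.24 (SE 0.14, adjusted p = 0.156) and 0.33 (SE 0.14, adjusted p = 0.0838). The stock difference reached adjusted p = 0.0107, with 0.44, without replicate 1 of attp2.

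**Figure D1:**
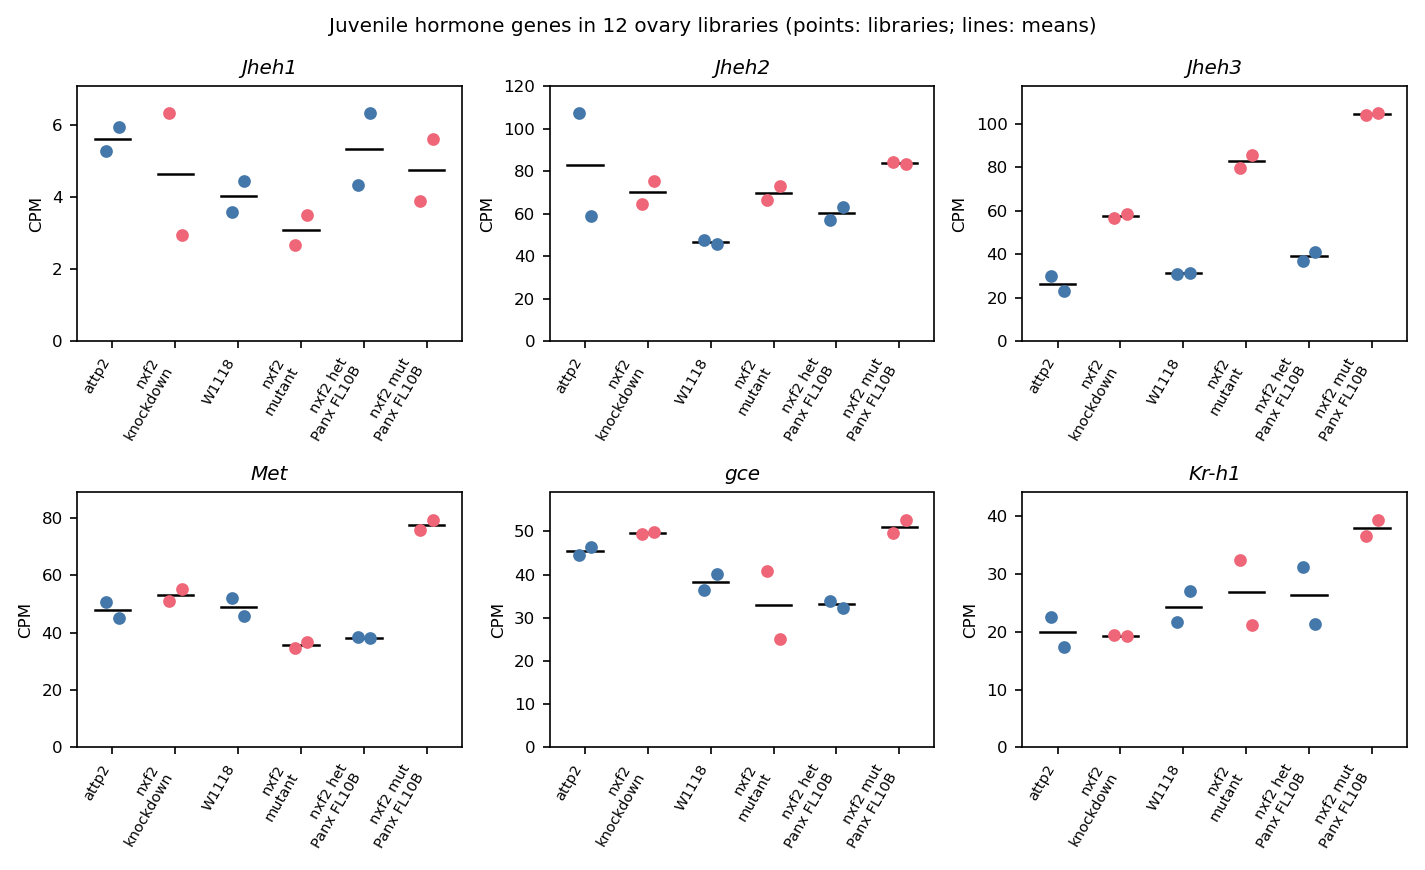
Level of each gene in CPM (vertical axis, from 0, with its own range per gene) in the 12 libraries, by group. Points are libraries, blue for wild-type stocks and the heterozygote and red for the knockdown and both mutant groups, and lines are means of 2 libraries; Jheh3 lies between 22.9 and 41.2 CPM in the blue groups and between 56.7 and 105.0 CPM in the red ones.

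Jheh2 encodes another of the hydrolases, and its level did not pass the test in any nxf2 comparison in the model of all libraries. It was 107.2 and 58.9 CPM in attp2, against 64.4 and 75.5 CPM in the knockdown. It was 47.6 and 45.8 CPM in W1118, against 66.3 and 72.8 CPM in the mutant. It was 56.9 and 63.3 CPM in the FL10B heterozygote and 84.3 and 83.4 CPM in the FL10B mutant. The libraries of attp2 spanned the knockdown, while the mutant groups lay above their controls. The log2 fold changes were -0.25 (SE 0.20, adjusted p = 0.435) in the knockdown, 0.58 (SE 0.22, adjusted p = 0.0705) in the mutant and 0.48 (SE 0.21, adjusted p = 0.139) with Panx FL10B. With only the libraries of a comparison in the fit, Jheh2 passed the test in the mutant (0.57, adjusted p = 0.00142) and with Panx FL10B (0.48, adjusted p = 2.98e-05), and with DESeq2 in the mutant (adjusted p = 0.0405). Both directions turn with the wild-type stock used as control. Against W1118 the knockdown value was 0.58 (adjusted p = 0.04), and against attp2 the mutant value was -0.26. The knockdown value also rests on which attp2 library is used. It was 0.25 without replicate 1 of attp2 and -0.62, adjusted p = 0.00316, without replicate 2. Jheh2 was lower in W1118 than in attp2, with a fitted log2 fold change of -0.83 (SE 0.22, adjusted p = 0.00574). That difference was -0.34 (adjusted p = 0.0368) without replicate 1 of attp2 and -1.20 (adjusted p = 1.73e-06) without replicate 2, and without replicate 2 of W1118 it was -0.80 and missed the threshold (adjusted p = 0.0509).

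Jheh1 encodes the third hydrolase and had the fewest counts of the 6 genes, 14 to 65 per library. It was 5.29 and 5.95 CPM in attp2, against 6.33 and 2.95 CPM in the knockdown, and 3.60 and 4.44 CPM in W1118, against 2.68 and 3.51 CPM in the mutant. It was 4.35 and 6.33 CPM in the FL10B heterozygote and 3.89 and 5.62 CPM in the FL10B mutant. The knockdown libraries lay on either side of attp2, and both Panx FL10B groups overlapped. Its log2 fold changes of -0.27 (SE 0.33), -0.41 (SE 0.40) and -0.19 (SE 0.36) in the 3 nxf2 comparisons did not pass the test (adjusted p = 0.618, 0.479 and 0.765). A difference of the size of these errors was not detectable at this depth.

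Per kilobase of annotated exon, Jheh2 stood at 23.8 to 55.7 CPM, Jheh3 at 14.5 to 66.6 CPM and Jheh1 at 1.81 to 4.26 CPM across the libraries. The ratio of Jheh3 to Jheh2 per kilobase was 0.341 and 0.475 in attp2, against 1.08 and 0.949 in the knockdown. It was 0.793 and 0.838 in W1118, against 1.47 and 1.44 in the mutant. It was 0.796 in both libraries of the FL10B heterozygote and 1.51 and 1.54 in the FL10B mutant. In each of these comparisons both knockdown or mutant libraries lay above both controls.

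Of the counts of the 3 hydrolase genes together, Jheh3 took 21.03% and 26.1% in attp2, against 44.5% and 42.8% in the knockdown. It took 37.6% and 38.5% in W1118, against 53.7% and 52.9% in the mutant. It took 37.7% and 37.2% in the FL10B heterozygote and 54.1% in both libraries of the FL10B mutant. The 3 genes summed to 142.5 and 87.7 CPM in attp2, against 127.4 and 137.1 CPM in the knockdown, and 82.1 and 81.6 CPM in W1118, against 148.9 and 162.2 CPM in the mutant. With Panx FL10B they summed to 98.4 and 110.9 CPM in the heterozygote and 192.2 and 194.0 CPM in the mutant. Both mutant groups lay above their controls in this sum, and attp2 spanned the knockdown.

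**Figure D2:**
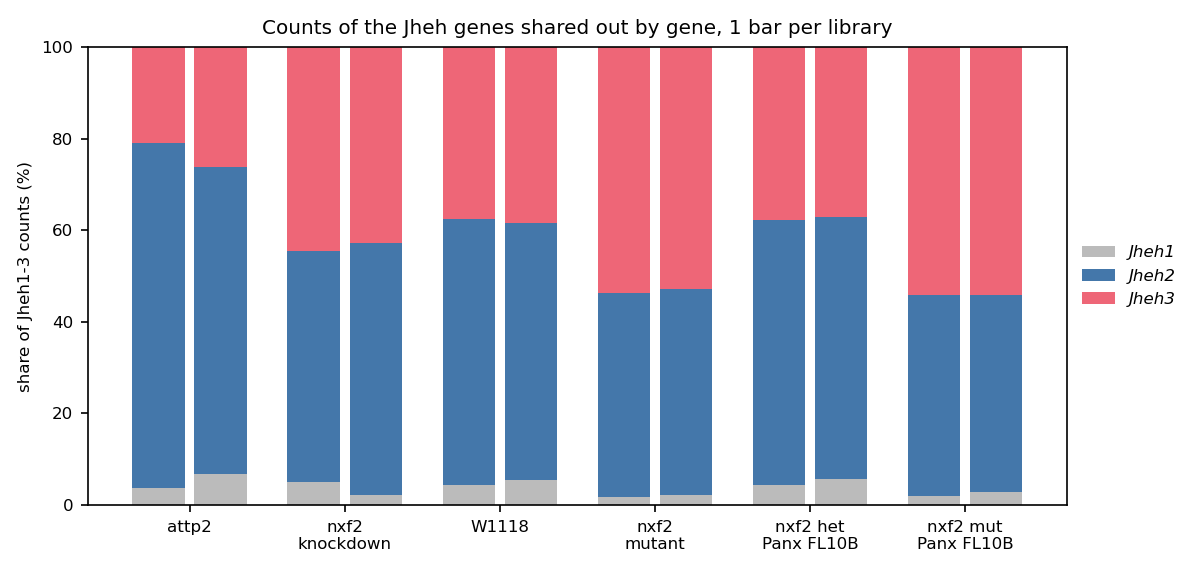
Share of Jheh1 (grey), Jheh2 (blue) and Jheh3 (red) in the summed counts of the 3 genes (vertical axis, percent), 1 bar per library in the 6 groups. The Jheh3 share is 21.03% to 38.5% in the controls and 42.8% to 54.1% in the knockdown and mutant libraries.

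The 3 hydrolase genes lie side by side on chromosome 2R on the same strand, and in the Ensembl annotation used here, which is not that of the count table, an antisense RNA overlaps exons of all 3. No source used here says whether the counting used strand, so reads of that RNA cannot be told apart from theirs. Of the 5 nearest genes on each side, the 5 on 1 side passed the filter and none of those on the other did. None of the 5 tested neighbours was called in the same direction in all 3 nxf2 comparisons. In these, 15.7%, 26.8% and 19.5% of all tested genes were called in either direction. The share called the same way in all 3 was not counted, so nothing is read from this about the locus. The nearest, CG18190, had log2 fold changes of -0.19 (adjusted p = 0.298) in the knockdown, 0.04 (adjusted p = 0.819) in the mutant and -0.37 (adjusted p = 0.0404) with Panx FL10B. CG15099 rose in the knockdown by 0.45 (adjusted p = 0.0108) and fell in the mutant by 0.49 (adjusted p = 0.00411), and had 0.04 (adjusted p = 0.816) with Panx FL10B.

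Met, a receptor of juvenile hormone, fell in the mutant without Panx FL10B and rose in the mutant with it. Its level was 50.8 and 45.1 CPM in attp2, against 51.1 and 55.3 CPM in the knockdown. It was 52.0 and 45.9 CPM in W1118, against 34.7 and 36.7 CPM in the mutant. It was 38.4 and 38.0 CPM in the FL10B heterozygote and 75.9 and 79.3 CPM in the FL10B mutant. The FL10B mutant stood above all other libraries, and the mutant and the FL10B heterozygote stood below the rest. The knockdown, W1118 and attp2 formed the middle of the order, with means of 53.2, 49.0 and 47.9 CPM, and neighbouring ones of these overlapped. The highest group mean, 77.6 CPM, was 2.17 times the lowest, 35.7 CPM.

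In the mutant against W1118, Met was 1.37-fold lower, with a fitted log2 fold change of -0.45 (SE 0.12, adjusted p = 0.0132). This call was lost without replicate 1 of W1118 (-0.37, adjusted p = 0.117) and without replicate 1 of the mutant (-0.41, adjusted p = 0.0824). With Panx FL10B, Met was 2.03-fold higher in the mutant than in the heterozygote, with 1.02 (SE 0.11, adjusted p = 3.69e-05). In the knockdown the log2 fold change was 0.15 (SE 0.11, adjusted p = 0.372). Tests of the differences between these effects passed the threshold, and the comparisons also differ in control genotype, stock or Panx FL10B, and possibly in batch. The effect with Panx FL10B exceeded that in the mutant alone by 1.47 (SE 0.16, adjusted p = 3.92e-05). The knockdown effect exceeded the mutant effect by 0.60 (SE 0.16, adjusted p = 0.0150), which was 0.52 (adjusted p = 0.0745) without replicate 1 of W1118. The FL10B heterozygote differs from W1118 in nxf2 dose and Panx FL10B, and possibly in stock and batch. This control of the Panx FL10B comparison was itself lower in Met than W1118, by a fitted log2 fold change of -0.35 (SE 0.12, adjusted p = 0.0382). That call was lost when any 1 of its 4 libraries was left out, with adjusted p of 0.0667 to 0.228. Between W1118 and attp2 the log2 fold change was 0.02 (SE 0.11, adjusted p = 0.878).

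gce, the paralogue of Met that also binds juvenile hormone, rose in the FL10B mutant. Its level was 44.5 and 46.4 CPM in attp2, against 49.4 and 49.9 CPM in the knockdown. It was 36.5 and 40.1 CPM in W1118, against 40.8 and 25.2 CPM in the mutant. It was 33.9 and 32.4 CPM in the FL10B heterozygote and 49.6 and 52.7 CPM in the FL10B mutant. The libraries of the mutant lay on either side of W1118, and the FL10B mutant stood above its heterozygote. In the order of means the FL10B mutant (51.1 CPM) and the knockdown (49.7 CPM) overlapped at the top, and the FL10B heterozygote (33.1 CPM) and the mutant (33.0 CPM) overlapped at the bottom.

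With Panx FL10B, gce was 1.54-fold higher in the mutant, with a fitted log2 fold change of 0.63 (SE 0.17, adjusted p = 0.0213). The log2 fold change kept to 0.59 to 0.67 when 1 library of that comparison was left out, and the call was then lost in each case. In the mutant without Panx FL10B it was -0.22 (SE 0.18, adjusted p = 0.39), and it was called at -0.61 (adjusted p = 0.0157) without replicate 1 of the mutant and at -0.46 (adjusted p = 0.0308) against attp2. In the knockdown it was 0.13 (SE 0.16, adjusted p = 0.632). The effect with Panx FL10B exceeded that in the mutant alone by 0.84 (SE 0.25, adjusted p = 0.0262), with 0.54 to 1.24 when 1 library was left out. Of the 8 libraries, leaving out replicate 1 of the mutant kept this call, and leaving out any other gave adjusted p of 0.0514 to 0.12. Met took 60.5% and 60.1% of the counts of both receptors in the FL10B mutant, with 95% exact binomial intervals of 57.4% to 63.5% and 56.8% to 63.3%. It took 53.1% and 54.0% in the heterozygote, with intervals of 48.0% to 58.2% and 49.4% to 58.5%, which cover counting error only. Single libraries of other groups came close to the FL10B mutant, with 58.7% in replicate 1 of W1118 and 59.3% in replicate 2 of the mutant. The replicates of the mutant, 45.9% and 59.3%, lay farther apart than the FL10B groups, so no difference in this share is read. Antisense RNAs overlap gce exons in the Ensembl annotation, and none overlaps Met.

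Kr-h1, the receptor target, did not pass the test in any comparison in the model of all libraries. Its level was 22.4 and 17.3 CPM in attp2, against 19.3 and 19.2 CPM in the knockdown, and 21.6 and 27.0 CPM in W1118, against 32.4 and 21.2 CPM in the mutant. It was 31.2 and 21.3 CPM in the FL10B heterozygote and 36.5 and 39.3 CPM in the FL10B mutant. The latter pair stood above all other libraries, and all other neighbouring groups in the order of means overlapped. Its log2 fold change with Panx FL10B was 0.54 (SE 0.22, adjusted p = 0.100), and it passed with only those 4 libraries in the fit (0.56, adjusted p = 0.00257). It was 0.83 (adjusted p = 0.0676) without replicate 1 of the FL10B heterozygote and 0.28 (adjusted p = 0.563) without replicate 2. It was 0.13 (SE 0.22, adjusted p = 0.702) in the mutant and -0.04 (SE 0.22, adjusted p = 0.919) in the knockdown. Per kilobase of exon, the level was 3.26 to 7.41 CPM for Kr-h1, 6.81 to 15.6 CPM for Met and 4.34 to 9.07 CPM for gce. An overlapping gene, CG45075, shares exonic sequence with Kr-h1 in the Ensembl annotation.

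Set side by side, the knockdown had 1 of the 6 genes called, against 15.7% of all tested genes in either direction. In the mutant 2 were called, against 26.8% of all tested genes, and with Panx FL10B 3 were called, against 19.5%. Between W1118 and attp2, 1 gene was called, Jheh2, against 55.5%, and between the FL10B heterozygote and W1118, 1 gene, Met, against 32%. For the difference between the knockdown and mutant effects 1 gene was called, against 27%, and for that between the effects with and without Panx FL10B 2 were called, against 21.2%. The median log2 fold change of the 6 genes was 0.04 in the knockdown, -0.04 in the mutant and 0.58 with Panx FL10B. Over all tested genes these medians were -0.03, 0.04 and -0.01.

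**Figure D3:**
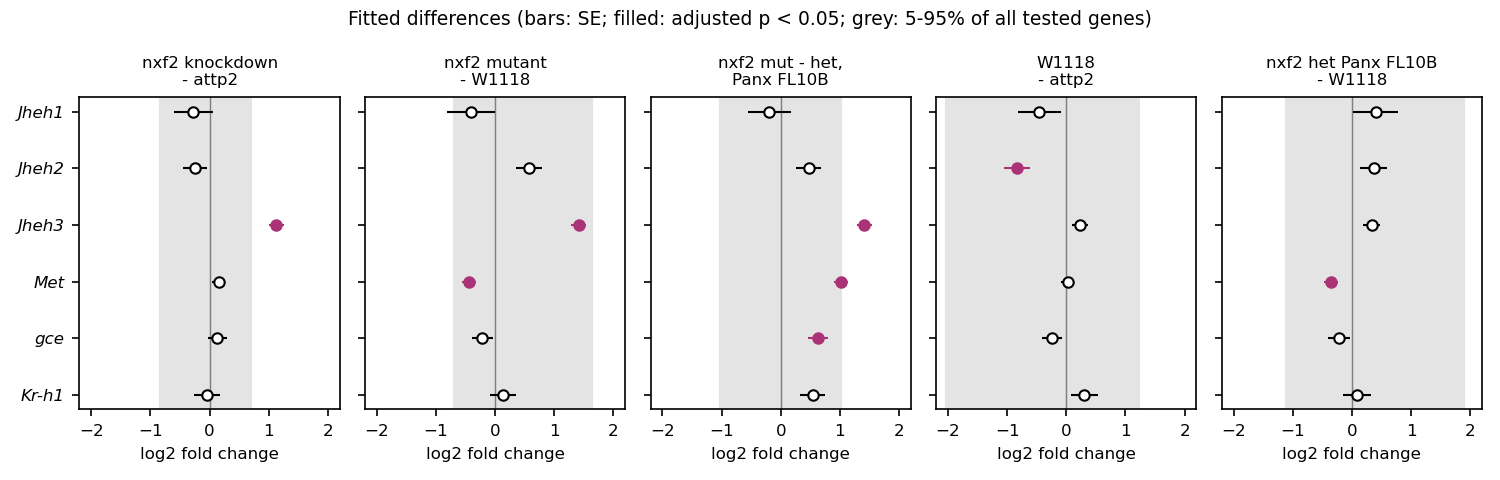
Fitted log2 fold change (horizontal axis) of each gene in 5 comparisons, with bars for the standard error and filled points for an adjusted p under 0.05. Grey bands hold 5% to 95% of all tested genes; Jheh3 lies outside the band in the knockdown (1.13) and with Panx FL10B (1.41), and inside it in the mutant (1.41).

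Other cell types that an ovary dissection can hold also differed between groups, and their part in the results above was not tested. In bulk RNA, fewer cells of a type and less RNA per cell cannot be told apart. Late chorion genes, 9 eggshell genes of the last egg stages, summed to 17130 to 17494 CPM in the FL10B heterozygote and to 330.2 to 494.4 CPM in the FL10B mutant, and all 9 fell. They summed to 21855 to 22212 CPM in attp2, 29241 to 32748 CPM in the knockdown and 6880 to 7181 CPM in W1118, against 9305 to 13146 CPM in the mutant. With Panx FL10B 9 of 9 were called lower, where 19.5% of all tested genes were called in either direction. In the knockdown 4 of 9 were called higher, beside 15.7%, and in the mutant 3 of 9, beside 26.8%. A link to Jheh3 was not tested. Vitelline membrane genes, an earlier eggshell set of 5, summed to 12719 to 14937 CPM in the knockdown and 5068 to 5215 CPM in attp2. They summed to 1882 to 2014 CPM in the FL10B mutant and 4379 to 4435 CPM in its heterozygote.

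Fat body markers, 11 genes of the tissue that stores fat and makes blood proteins, summed to 97.7 to 113.6 CPM in attp2, against 17.5 to 50.03 CPM in the knockdown. They summed to 78.0 to 80.6 CPM in W1118, against 123.8 to 279.5 CPM in the mutant, and to 94.96 to 100.7 CPM in the heterozygote and 87.5 to 90.2 CPM in the FL10B mutant. Of all tested genes, 15.7% (knockdown), 26.8% (mutant) and 19.5% (with Panx FL10B) were called in either direction. Of the 11 markers, 2 were called in the knockdown, both lower, and 4 in the mutant, all higher. In the FL10B mutant 5 were called higher and 1 lower, with a median log2 fold change of 1.32, although the sum was lower. Rfabg, the largest part of the sum, was 70.2 CPM in the FL10B heterozygote and 33.5 CPM in the FL10B mutant and was not called (adjusted p = 0.207). CG15828, called higher, was 13.7 and 32.5 CPM. More fat body markers were called higher than lower in both mutant comparisons, and more lower than higher in the knockdown. In the FL10B mutant, Fbp1, Lsp1alpha, Lsp1beta and Lsp1gamma, all called higher, had means of 2.69 to 4.45 CPM. Tsf1 was called lower there (-2.90, adjusted p = 0.000319), and Rfabg, fit and fon were lower without a call. In the mutant, the Tsf1 call rests on no count in W1118, against 2.94 CPM. The Lsp2 call there rests largely on 1 library, at 30.7 CPM against 2.08 CPM in the other. A link to Jheh3 was not tested. In W1118, Fbp1, Fbp2, Lsp1alpha, Lsp1gamma and Tsf1 were at 0, Lsp1alpha was at 0 in attp2, fit in the knockdown and Fbp2 in the mutant. Muscle markers, 8 genes, summed to 246.5 to 247.3 CPM in the heterozygote and 470.8 to 487.7 CPM in the FL10B mutant. They summed to 204.6 to 393.4 CPM in attp2, 279.9 to 322.2 CPM in the knockdown and 395.0 to 410.9 CPM in W1118, against 309.8 to 563.1 CPM in the mutant. The FL10B mutant stood above its heterozygote in this sum, and the mutant spanned W1118. Hemocyte and basement membrane genes, 5 in all, summed to 394.1 to 497.6 CPM in attp2, against 406.3 to 469.7 CPM in the knockdown, which overlap. They summed to 290.5 to 291.1 CPM in W1118, against 436.3 to 572.2 CPM in the mutant, and to 437.9 to 457.1 CPM in the heterozygote and 566.3 to 574.2 CPM in the FL10B mutant.

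Germline markers, 7 genes, summed to 3624 to 3695 CPM in the FL10B mutant and 2891 to 3089 CPM in its heterozygote, and to 2986 to 3079 CPM in the mutant and 3877 to 4013 CPM in W1118. The largest part of this sum in W1118 and the FL10B mutant was osk, and a link between the sum and Met was not tested. The level of osk was 1537 CPM in W1118 and 894.0 CPM in the mutant, 1066 CPM in the FL10B heterozygote and 1670 CPM in the FL10B mutant. Among the other markers, vas did not pass in either comparison, with log2 fold changes of -0.08 and 0.12 (adjusted p = 0.574 and 0.416), and nos was lower in the FL10B mutant (-0.70, adjusted p = 0.00207). In the mutant 2 of the 7 were called lower, beside 26.8% of all tested genes called in either direction, and the list's median was -0.08. In the FL10B mutant 3 were called higher and 1 lower, beside 19.5%, with a median of 0.19. In the knockdown the sum was 3596 to 3731 CPM, which overlaps 3517 to 3624 CPM in attp2. Gut markers summed to at most 3.90 CPM in any library.

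The genes around the 6 in the pathway were counted in lists that were also chosen with earlier results of these data known. Of 8 genes of hormone synthesis 7 were tested. The counts called below stand beside 15.7% (knockdown), 26.8% (mutant) and 19.5% (with Panx FL10B) of all tested genes called in either direction. In the knockdown 1 was lower, CG8239 (21.2 to 13.4 CPM, log2 fold change -0.67, adjusted p = 0.0481), and in the mutant 1 was higher, Hmgs (55.9 to 74.98 CPM, 0.42, adjusted p = 0.0201), which encodes an early enzyme of the mevalonate pathway. With Panx FL10B the adjusted p of the 7 ranged from 0.34 (CG8239) to 0.922 (CG10268). With attp2 as control Hmgs turned to -0.24, from 88.4 CPM in that stock. The Hmgs call was lost without any 1 of its 4 libraries (adjusted p of 0.0525 to 0.133), and that of CG8239 without any other than replicate 1 of attp2 (0.0538 to 0.405). Their median log2 fold changes were -0.15 in the knockdown, -0.01 in the mutant and -0.13 with Panx FL10B. Jhe and Jhedup, esterases of the hormone or its relatives, and to (takeout), a gene for a carrier-like protein, were not tested, and their summed level was at most 0.557 CPM in any library.

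Of 7 receptor partners and coactivators, 7 were tested and only tai was called, in the mutant and with Panx FL10B, where 26.8% and 19.5% of all tested genes were called in either direction. tai encodes taiman, a coactivator that pairs with Met. It was 83.0 and 84.9 CPM at the lowest and highest in W1118, against 56.7 and 60.4 CPM in the mutant, where it fell by 0.52 on the log2 scale (SE 0.13, adjusted p = 0.0107). It was 60.7 and 63.4 CPM in the FL10B heterozygote and 89.5 and 96.3 CPM in the FL10B mutant, where it rose by 0.58 (SE 0.13, adjusted p = 0.00623). The groups did not overlap in either comparison, and the effects differed by 1.10 (SE 0.18, adjusted p = 0.000971). tai and Met were thus called lower in 1 of these comparisons and higher in the other. As for Met, the control of the FL10B comparison was itself lower in tai than W1118, at -0.44 (SE 0.13, adjusted p = 0.0218). That control and W1118 may also differ in stock and batch. Both tai calls were lost when some single libraries were left out, with adjusted p of 0.0666 to 0.0791 in the mutant and 0.0694 and 0.0741 with Panx FL10B. Hsp83, the chaperone of Met, stood at 5364 to 5374 CPM in the FL10B mutant and 4350 to 4457 CPM in its heterozygote and was not called. The median log2 fold changes of the list were 0.09, -0.11 and 0.22 in the knockdown, the mutant and with Panx FL10B.

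Of 9 genes inducible or regulated by juvenile hormone, 8 were tested. The 2 called in each of the knockdown, mutant and FL10B comparisons stand beside 15.7%, 26.8% and 19.5% of all tested genes called in either direction. In the knockdown 2 rose, br, a zinc finger gene of the ecdysone response (0.63, SE 0.099, adjusted p = 0.00121), and ftz-f1, a nuclear receptor gene (0.40, adjusted p = 0.0139). In the mutant the same 2 fell, br by 0.44 (adjusted p = 0.00736) and ftz-f1 by 0.30 (adjusted p = 0.0277). With Panx FL10B 2 rose, ftz-f1 by 0.63 (adjusted p = 0.000393) and JhI-26 by 1.62 (adjusted p = 0.0484). The level of ftz-f1 was 350.8 to 351.4 CPM in the heterozygote and 538.0 to 546.2 CPM in the FL10B mutant, that of JhI-26 2.94 to 3.41 and 9.41 to 10.1 CPM. The wild-type stocks stood far apart in ftz-f1, 193.0 to 203.1 CPM in attp2 and 426.9 to 487.9 CPM in W1118. With the other stock as control, its log2 fold change was -0.81 in the knockdown and 0.91 in the mutant. The calls of br in the knockdown and of ftz-f1 in the FL10B mutant held without each library in turn. That of ftz-f1 in the knockdown was lost without replicate 1 of the knockdown (adjusted p = 0.10). That of ftz-f1 in the mutant was lost without any 1 library other than replicate 1 of W1118 (adjusted p of 0.089 to 0.293), and that of JhI-26 without any 1 of its libraries (0.153 to 0.246). That of br in the mutant was lost without replicate 2 of W1118 (0.0742) or replicate 2 of the mutant (0.0553). The list's medians were -0.23, -0.37 and 0.23.

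**Figure D4:**
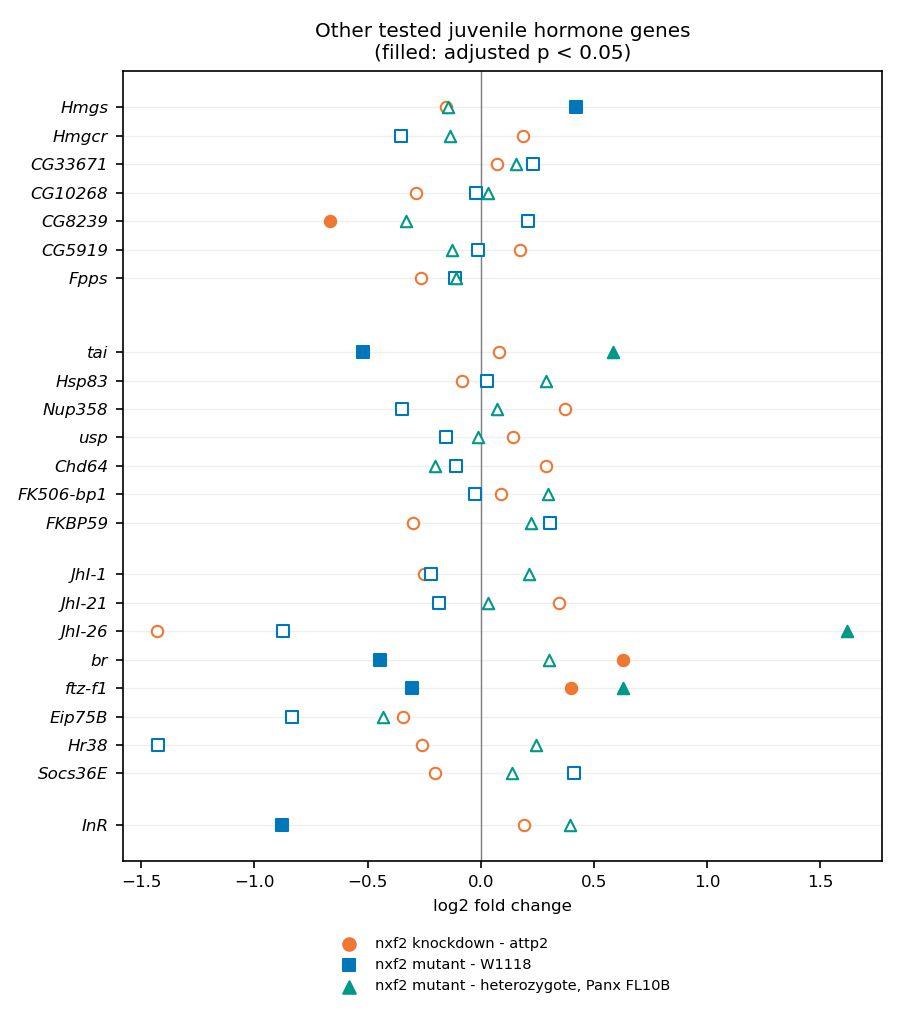
Fitted log2 fold change (horizontal axis) of the tested juvenile hormone genes other than the 6, by list, in the knockdown (orange circles), the mutant (blue squares) and with Panx FL10B (green triangles). Filled symbols have an adjusted p under 0.05; tai is filled at -0.52 in the mutant and 0.58 with Panx FL10B.

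Of 7 genes for signals to the gland that makes the hormone, 6 were in the table and 1, the insulin receptor gene InR, was tested. InR fell in the mutant by 0.88 (adjusted p = 0.000911), from 191.7 to 211.0 CPM in W1118 to 92.7 to 126.6 CPM. With attp2 as control the value was 0.13, and leaving out each library in turn kept the call. Of 9 other genes of the bHLH-PAS family, which holds Met and gce, 8 were tested. The counts that follow stand beside 15.7% (knockdown), 26.8% (mutant) and 19.5% (with Panx FL10B) of all tested genes called in either direction. In the knockdown 2 were higher, sima (0.45) and tgo (0.35), and 1 was lower, cyc (-0.90). In the mutant 2 were higher, sim (0.45) and dys, which had no count in W1118, against 66.1 to 73.5 CPM in the mutant, and 2 were lower, tai and sima (-0.38). With Panx FL10B 2 were higher, dys (2.15, from 18.2 to 81.2 CPM) and tai, and 1 was lower, sim (-1.90, from 32.0 to 8.49 CPM). The calls of cyc, of dys and of sim in the FL10B mutant held without each library in turn, and those of sima, of tgo and of sim in the mutant did not. Against the other stock cyc was at 0.0053 and tgo at -0.19 in the knockdown, and the calls of sima (adjusted p = 0.624 in the knockdown and 1.00 in the mutant) and of sim in the mutant (adjusted p = 0.891) were lost.

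Likeness of pattern was measured as the root mean square difference of log2 CPM over the 12 libraries, with each gene centred on its own mean. Closest to Jheh3 were tomboy40 (0.27), sick (0.32) and Ac76E (0.32), where Jheh3 itself varied by 0.73 around its mean. Closest to Met were CG43672, vig and klar (0.14, 0.14 and 0.15, own variation 0.37), and closest to gce were Eip63E, Fas2 and hrg (0.15, 0.17 and 0.17, own variation 0.30). Closest to Kr-h1 were crp, fau and CG4069 (0.17, 0.18 and 0.19, own variation 0.37). For Jheh2 they were bor, CG32066 and mbm, each at 0.18 against 0.34, and for Jheh1 CG1271, Ggt-1 and adp (0.23, 0.23 and 0.24 against 0.38). Among the 6 genes the closest pair was Met and gce, at 0.25, with 1.09% of tested genes closer to Met than gce. Jheh2 and Jheh3 differed by 0.65, and the farthest pair was Jheh1 and Jheh3, at 0.93.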

How the data were processed

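RNA-seq was made from ovaries in 12 libraries. Per the labels' protocols, Trizol total RNA was primed with not-so-random primers, size-selected and read on a HiSeq sequencer. The deposited values are raw counts per gene, not normalised by the authors. The submitters' processing notes name bcl2fastq 1.8.4, cutadapt 1.16, STAR 2.5.2a and the dm3 genome, and, except for the 4 Panx FL10B libraries, deepTools 2.5.7 and featureCounts 1.6.1. No source used here gives the annotation or whether strand was used.

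The test was that of edgeR 4.0.16 (R 4.3.3) on the deposited counts, with filterByExpr on the groups (8638 of 15446 genes kept, 1698 had no count), TMM scaling, and robust quasi-likelihood F tests in 1 model of 12 libraries and 6 groups, with 6 residual degrees of freedom. All adjusted p-values are Benjamini-Hochberg over the 8638 genes, two-sided, called under 0.05. Groups of 2 share 1 estimate of the spread, although the chi-square between replicates, which grows with depth, differed between groups and was highest in attp2. CPM are scaled by TMM. log2 CPM in the measure of likeness use a prior count of 2. Exon lengths and overlaps come from the Ensembl BDGP6 annotation, not that of the counts, so no coordinates are given.

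The 6 genes, the lists, markers and tests were chosen with earlier results of these data known. Named genes are the 6, nxf2, called list members (at most 4 per list and comparison), markers at 0, and the 3 genes most like each of the 6. Neighbours of the hydrolase genes, Jhe, Jhedup, to, jhamt and Hsp83 were named after their values were seen. The test code was checked on simulated data. Alternatives were other scalings and filters, a replicate block, the other wild-type stock, only the libraries compared, DESeq2 1.42.0 and leaving out each library.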

Additional observations from a re-analysis of the deposited data

Results flagged for a closer look

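The log2 fold changes of Met and gce differed between nxf2 comparisons, by a test of the difference itself in edgeR. The controls were W1118 for the mutant, an nxf2 +/- group for the FL10B mutant and attp2 for the knockdown. A different effect of nxf2 loss cannot be told apart from these differences in control genotype, stock and Panx FL10B, or from a possible batch. The processing notes of the Panx FL10B libraries differ from those of the others, and whether they form a batch of their own was not tested. For Met, the log2 fold change in the mutant with Panx FL10B exceeded that in the mutant alone by 1.47 (adjusted p = 3.92e-05), and both libraries of each mutant group lay on the stated side of their controls. For Met, the knockdown effect exceeded the mutant effect by 0.60 (adjusted p = 0.0150). For gce, the effect with Panx FL10B exceeded that in the mutant alone by 0.84 (adjusted p = 0.0262), and the mutant libraries without Panx FL10B lay on either side of W1118. Among the 3 differences, that of Met with Panx FL10B held its call under all 16 alternatives run, that of Met in the knockdown under 14 of 16, and that of gce under 9 of 16.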

How the results depend on the processing

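Jheh3 was called higher in all 3 nxf2 comparisons under every alternative run (13, 13 and 12), with log2 fold changes of 0.89 to 1.33, 1.36 to 1.65 and 1.34 to 1.49. Met with Panx FL10B was called under all 12. Counts of the 6 genes called moved as follows. For knockdown against mutant effects, 2 were called with upper-quartile factors, with library totals and with DESeq2, and 0 with only the libraries compared. For the heterozygote with Panx FL10B against W1118, 0 were called without a filter, with DESeq2 and with a replicate block, and 3 with only the libraries compared. With only the libraries compared, all genes called in the knockdown numbered 188, from 1356. In the knockdown, 2 were called against W1118, and with Panx FL10B, 5 with only the libraries compared. Leaving out 1 library gave 1 to 2 calls in the knockdown and the mutant, 2 with Panx FL10B, 0 to 2 between stocks, 0 for the heterozygote, 0 to 3 for the knockdown difference and 1 to 2 for the Panx FL10B difference.

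Same-numbered libraries did not deviate together (correlations of 0.08, -0.02 and -0.05), which does not show whether they were handled together. The replicate block changed no other count of calls. Against the other stock, log2 fold changes reversed to 0.19 for Jheh1, 0.58 for Jheh2 (adjusted p = 0.04), 0.0053 for cyc, -0.81 for ftz-f1 and -0.19 for tgo in the knockdown, and to -0.26 for Jheh2, 0.91 for ftz-f1, -0.24 for Hmgs and 0.13 for InR in the mutant. The Jheh3 difference with Panx FL10B was -0.028 with library totals and -0.0027 without a filter. With 1 library left out, values that did not pass the test crossed 0: in the knockdown, Jheh1 (-0.93 to 0.17), Jheh2 (-0.62 to 0.25) and Kr-h1 (-0.22 to 0.16); in the mutant, gce (-0.61 to 0.082) and Kr-h1 (-0.21 to 0.40); with Panx FL10B, Jheh1 (-0.46 to 0.12) and the Jheh3 difference (-0.069 to 0.085); Met between stocks (-0.065 to 0.11) and Kr-h1 for the heterozygote (-0.20 to 0.35). The cause of these changes was not tested. Scalings moved the median of all genes by less than 0.1. Depth limits Jheh1 most.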
